A study of Mus musculus with 8 samples.

Results

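Metallothioneins and zinc transporters were examined in C2C12 myotubes through 7 genes: the metallothioneins Mt1 and Mt2, the zinc-sensing transcription factor Mtf1, the zinc exporters Slc30a1 and Slc30a4, and the zinc importers Slc39a1 and Slc39a10. Members were all probe sets of the Affymetrix mouse array whose platform annotation gives exactly 1 gene symbol, that symbol being 1 of the 7. This gave 8 of the 22690 probe sets, from 6 of the 12393 genes named on the array. Slc39a10 was matched by no probe set in the annotation used here and was not analysed here. Mt1 and Mtf1 had 2 probe sets each and the other 4 genes 1 each.

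C2C12 is a mouse myoblast line that fuses into multinucleated myotubes when serum is lowered. Both groups were differentiated for 4 days in DMEM with 2% horse serum, with regular feeding. Control cultures were then fed again every 48 h, whereas starved cultures were left unfed for a further 4 days, and total RNA was taken from both on day 8. The labels name no genetic change in either group. Each group has 4 arrays, lettered A to D for controls and E to H for starved myotubes. The labels do not say whether the samples of a group came from separate cultures, so p-values speak only to the variation among these arrays, which may be technical. The comparison shows which of these mRNAs differed between re-fed and unfed myotubes, a setting the labels tag with skeletal muscle and atrophy.

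Metallothioneins are small cysteine-rich proteins that bind zinc and copper and buffer the free metal in the cytoplasm. When zinc rises, it binds the zinc fingers of MTF1, which then binds metal response elements in the promoters of metallothionein genes and of Slc30a1 and increases their transcription. Proteins of the Slc30 family (ZnT) move zinc out of the cytoplasm, across the plasma membrane or into organelles and vesicles, and proteins of the Slc39 family (ZIP) move it into the cytoplasm. Slc39a10 is repressed by MTF1. Metallothionein mRNA also responds to glucocorticoids and to oxidative stress, and it is known to be high in wasting muscle.

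Promoter sequence is shown for Mt1 and Mt2, the metallothionein pair that MTF1 is known to drive, and for Slc39a1, the member that fell. The lines below give the 250 bases before the annotated start, 5′ to 3′ on the strand of the gene, from RefSeq on build GRCm38.p6. Capitals mark the core of the metal response element on either strand, searched as the 7 letters TGCACNC or TGCGCNC.
Mt1, chr8:94178839-94179088, plus strand: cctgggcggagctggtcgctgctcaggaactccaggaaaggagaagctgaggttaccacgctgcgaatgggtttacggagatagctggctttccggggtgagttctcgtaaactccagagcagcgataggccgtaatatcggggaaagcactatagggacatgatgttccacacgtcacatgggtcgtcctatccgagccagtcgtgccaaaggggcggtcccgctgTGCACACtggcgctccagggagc
Mt2, chr8:94172368-94172617, plus strand: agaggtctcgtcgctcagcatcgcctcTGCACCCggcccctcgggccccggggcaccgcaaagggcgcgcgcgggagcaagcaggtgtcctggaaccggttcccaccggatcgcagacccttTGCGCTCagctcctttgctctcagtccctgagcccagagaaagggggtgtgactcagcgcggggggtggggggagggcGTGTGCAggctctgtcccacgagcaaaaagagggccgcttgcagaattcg
Slc39a1, chr3:90247942-90248191, plus strand: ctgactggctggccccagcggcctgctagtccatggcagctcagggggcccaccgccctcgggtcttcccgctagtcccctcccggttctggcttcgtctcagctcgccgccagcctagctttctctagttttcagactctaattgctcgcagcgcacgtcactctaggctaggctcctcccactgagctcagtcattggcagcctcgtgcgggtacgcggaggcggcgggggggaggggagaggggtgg

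In the 250 bases before the annotated start Mt2 held 3 matches to the core and Mt1 1, and no matches overlapped. In the Slc39a1 window these letters did not occur. With the 50 bases after the annotated start included, Mt1 had 3 matches, Mt2 had 4, Slc30a1 had 2 and Slc30a4 had 3, and neither Mtf1 nor Slc39a1 had any. Of 32817 such promoter windows of 300 bases 25.7% held at least 1 match, 7.12% at least 2, 1.97% at least 3 and 0.518% at least 4. A match is a stretch of letters and not a shown binding site, and the start that these cells use was not measured. For Mt1, 2 of the 3 matches lay after the annotated start, beginning 2 and 20 bases from it, and bases beyond the 50 were not searched. The counts thus depend on the start taken, and they do not rank the Mt1 and Mt2 promoters. Mt1, Mt2, Mt3 and Mt4 are consecutive protein-coding genes on chromosome 8 in the RefSeq table.

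Arrays differed in brightness before any scaling. The trimmed mean intensity ran from 317 to 455 in controls and from 243 to 366 in starved arrays (log2 difference -0.38, two-sided exact permutation p = 0.0857). Values below are deposited intensities, on a linear scale, or log2 signals after quantile normalization, which gives every array the same distribution of signals. On that scale limma called 591 probe sets higher and 846 lower in starved myotubes at an adjusted p of 0.05, out of 13575 tested. With median centring the split was 364 to 820, and in deposited values without scaling it was 79 to 1533, where the median log2 difference of all tested probe sets was -0.33 in place of 0.02. Control B stood apart in its Gapdh signals: probe sets at the 3′ and 5′ ends of the transcript differed by 1.40 (log2) there and by -0.23 to -0.04 elsewhere. Whether RNA quality lay behind this was not tested. Without control B the differences were 0.45 for Mt2, 0.26 for Mt1, -0.07 for Mtf1, -0.26 for Slc30a4 and -0.31 for Slc39a1, in the probe sets that were tested, and 0.25 for the untested Slc30a1. The 10 myotube markers were all above the brightness limit for testing, with a summed normalized signal of 62969 to 67080 in controls and 61132 to 63792 in starved arrays. Single markers moved both ways: 3 were above zero and 7 below, with a median log2 difference of -0.11. Actn2 (0.58, limma adjusted p = 0.00255) was called higher and Des (-0.22, limma adjusted p = 0.0142) lower. Groups did not overlap for 3 markers that were higher and 2 that were lower, against 18.5% of all tested genes. The summed signal was lower in starved arrays, with no overlap, for markers of fibroblasts (7027 to 8419 in controls, 5691 to 6721 in starved arrays), of smooth muscle (11170 to 11484 against 7770 to 8622) and of proliferating cells (597 to 678 against 285 to 471). The fibroblast list did not move one way: by the brightest probe set of each gene 3 of its 6 markers were above zero and 3 below, with a median log2 difference of -0.06. The collagen Col1a1 (-1.15) and Postn (-2.42) were called lower, the proteoglycan Dcn (0.94, limma adjusted p = 0.00147) was called higher, and Pdgfra (0.56) was higher without overlap but not called. Of the smooth muscle markers Acta2 (-0.30), by far the brightest, and Tagln (-2.65) were called lower. Of the proliferating cell markers Cdk1 (-0.82) was called lower. Top2a (-0.98, limma adjusted p = 0.142) and Mki67 (-0.04, limma adjusted p = 0.930) were not called. The adipocyte sum overlapped between the groups, and Adipoq, Pparg, Cnn1, Myh11 and Myf5 were below the brightness limit. The lists are named after cell types, whereas the cultures were of the C2C12 line, and which cells made these mRNAs was not measured. The part of these shifts in the member results was not tested, and in bulk RNA fewer cells of a type and less RNA per cell cannot be told apart.

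**Figure D1:**
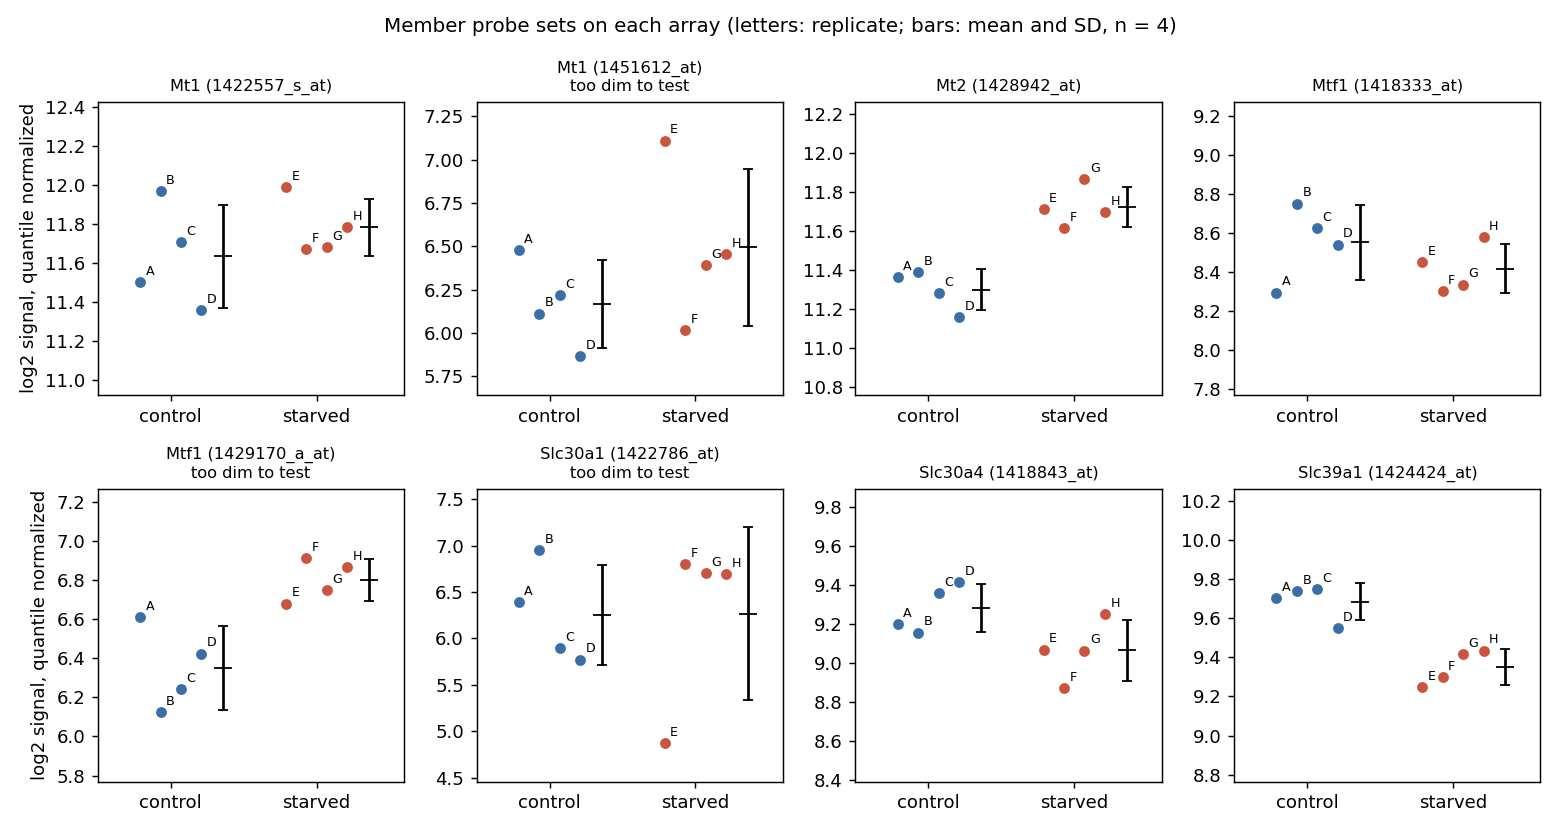
Log2 signal after quantile normalization (vertical axis, each panel with its own range) of the 8 member probe sets on each of the 8 arrays (controls A to D, starved E to H), with the mean and SD beside each group. Among the 5 probe sets bright enough to test, the groups stand apart for Mt2, which was higher in starved myotubes, and Slc39a1, which was lower.

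Of the 7 genes 5 could be tested, and of these 1 rose and 1 fell in starved myotubes. Mt2 rose 1.34-fold, and the zinc importer Slc39a1 fell by 0.33 on the log2 scale. Mt1, Mtf1 and Slc30a4 did not pass the test. Slc30a1, the main zinc exporter of the plasma membrane, was too dim to be tested. The brightness limit was the 40th percentile of mean log2 signals (6.61), and 5 of the 8 member probe sets passed it, 1 for each of 5 genes. The 2 calls among 5 tested probe sets stand beside 10.6% of all tested probe sets called, with 4.35% called higher and 6.23% lower. The median log2 difference over the 5 was -0.13, against 0.02 over all tested probe sets. Adjusted p-values are limma's, by Benjamini-Hochberg over all 13575 probe sets, with n = 4 arrays per group, and errors of differences are standard errors of the fit.

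Mt2, which metals and glucocorticoids induce along with Mt1, had log2 signals of 11.36, 11.39, 11.28 and 11.16 in controls A to D, against 11.71, 11.61, 11.86 and 11.70 in starved E to H. All 4 starved arrays lay above all 4 controls, and starved G was the highest. The group means were 11.30 ± 0.10 and 11.72 ± 0.10 (SD, n = 4), a difference of 0.42 ± 0.08 (95% interval 0.25 to 0.59, limma adjusted p = 0.00471). Groups did not overlap for 17.4% of all tested probe sets, with starved arrays higher for 8.21% and lower for 9.16%.

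The separation of the groups for Mt2 depended on scaling between arrays. The deposited Mt2 intensities were 3388, 2626, 2550 and 2908 in controls A to D, against 2498, 2614, 3449 and 3451 in starved E to H. Those groups overlap throughout, with means of 2868 ± 379 and 3003 ± 518 (SD, n = 4). Starved E had the dimmest Mt2 value of the 8 and also the dimmest array. Without scaling the log2 difference of Mt2 was 0.06 (limma adjusted p = 0.819), which is 0.39 above the median of all tested probe sets in those values. Relative to that median Mt2 stood 0.40 higher after quantile normalization. Median centring gave 0.38 (limma adjusted p = 0.0762), so the call was lost, and 75th percentile centring gave 0.42 (limma adjusted p = 0.0366). Leaving out any single array kept the call, with differences from 0.38 to 0.46. Without control B it was 0.45 (limma adjusted p = 0.00413).

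**Figure D2:**
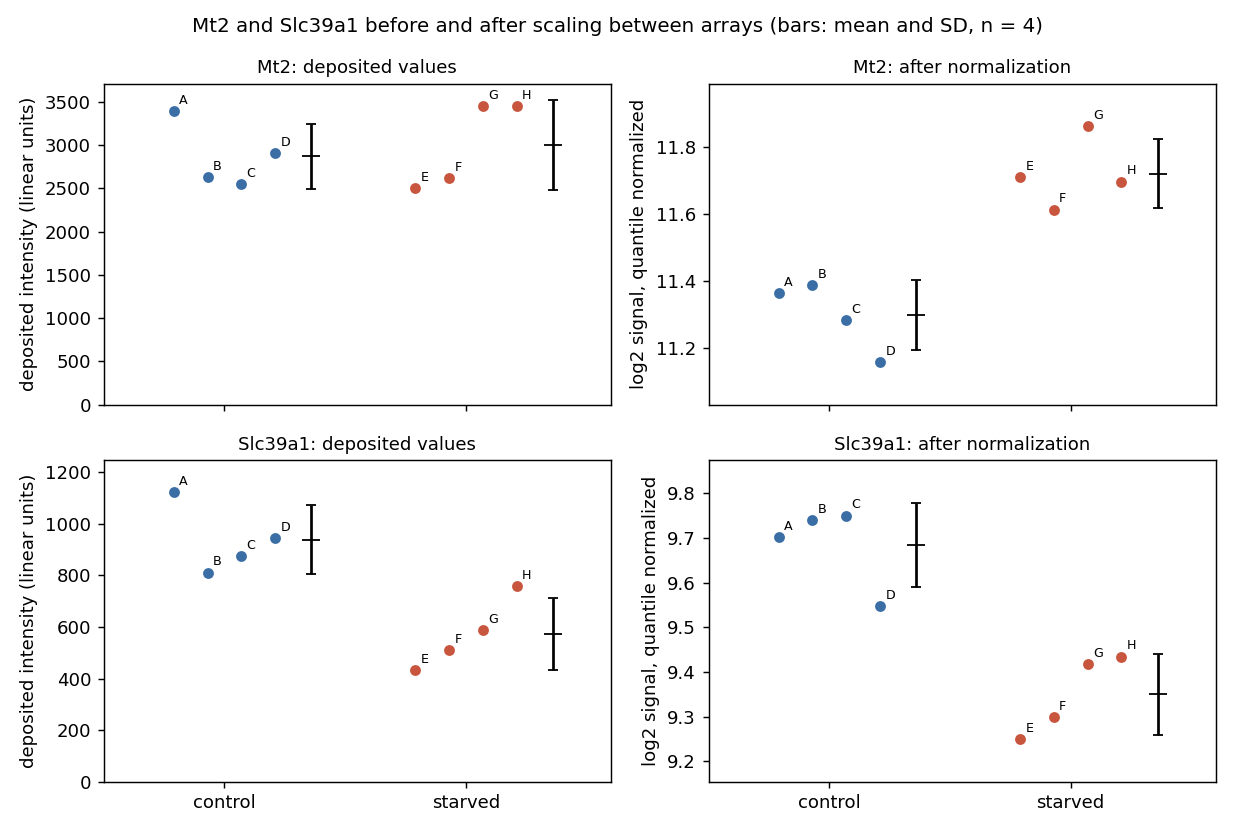
Deposited intensity (left, linear units, axis from 0) and log2 signal after quantile normalization (right, axis not from 0) of Mt2 and Slc39a1 on each array, with the mean and SD of each group of 4. Mt2 overlaps between the groups in deposited intensities (2550 to 3388 in controls, 2498 to 3451 in starved arrays) and separates only after normalization, whereas Slc39a1 is separated in both.

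Mt1, the other ubiquitous metallothionein, was measured by a probe set above the brightness limit (1422557_s_at) and one below it (1451612_at). The suffix _s_at marks probe sets whose probes match more than one transcript, and whether this one also binds Mt2 mRNA was not tested. Log2 signals of the bright probe set were 11.50, 11.97, 11.71 and 11.36 in controls A to D, against 11.99, 11.67, 11.68 and 11.78 in starved E to H. Control B was nearly as high as starved E, and the groups overlapped. The difference was 0.15 ± 0.12 (95% interval -0.13 to 0.42, limma adjusted p = 0.524). In deposited intensities Mt1 was at 3606 ± 300 in controls and 3141 ± 396 in starved arrays (SD, n = 4), and without scaling its difference changed sign to -0.20 (limma adjusted p = 0.379). No alternative called it. Single arrays moved the difference both ways: it was 0.26 without control B (limma adjusted p = 0.146), 0.06 without control D (0.830) and 0.08 without starved E (0.780).

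The dim Mt1 probe set had deposited intensities of 53.1 to 115.8 in controls and 48.8 to 92.2 in starved arrays. Control A was the highest of these. The normalized log2 signals were 6.48, 6.11, 6.22 and 5.87 in controls A to D, against 7.11, 6.02, 6.39 and 6.46 in starved E to H. On this scale starved E was the highest array, and the groups overlapped. The log2 difference was 0.33, with a standard error of 0.27 in the fit without a brightness limit, and it was 0.12 without starved E and 0.49 without starved F.

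Whether both metallothionein genes moved by the same amount was tested on the log2 difference of Mt2 minus Mt1 within each array. Centring of arrays leaves this difference as it is, whereas quantile normalization can change it. After quantile normalization the difference was -0.14, -0.58, -0.42 and -0.20 in controls A to D, against -0.28, -0.06, 0.18 and -0.09 in starved E to H. Starved E lay among the controls, so the groups overlapped. The mean went from -0.34 ± 0.20 to -0.06 ± 0.19 (SD, n = 4), a change of 0.27 (two-sided exact permutation p = 0.114, where the lowest p that 4 against 4 arrays allow is 0.0286). Without scaling the change was 0.26 (two-sided exact permutation p = 0.143). An unequal change of the pair was thus not shown, and an equal one was not shown either. A second such test, of Slc39a10 against Slc30a1, was planned and could not be made without a Slc39a10 value.

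Mtf1, the transcription factor that senses zinc and drives both metallothionein genes, did not pass. Its bright probe set (1418333_at) had log2 signals of 8.29, 8.75, 8.62 and 8.54 in controls A to D, against 8.45, 8.30, 8.34 and 8.58 in starved E to H. Control A lay below all starved arrays while the other 3 controls lay above at least 3 of them. The difference was -0.13 ± 0.12 (95% interval -0.41 to 0.14, limma adjusted p = 0.570). It was -0.22 without control A and -0.07 without control B, with no call in either.

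The dim Mtf1 probe set (1429170_a_at) lay the other way. Its log2 signals were 6.61, 6.12, 6.24 and 6.42 in controls A to D, against 6.68, 6.91, 6.75 and 6.87 in starved E to H. All 4 starved arrays were above the controls, although its mean was below the brightness limit and it was given no call. The log2 difference was 0.45, with a standard error of 0.20 in the fit without a brightness limit. In deposited intensities its groups overlapped, at 55.8 to 127.8 and 65.8 to 121.6. With the mean of both Mtf1 probe sets the difference was 0.16 (limma adjusted p = 0.394), of opposite sign to the bright probe set alone.

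Among the zinc exporters, Slc30a4 (ZnT4), which loads zinc into vesicles, did not pass. Its log2 signals were 9.20, 9.16, 9.36 and 9.41 in controls A to D, against 9.07, 8.87, 9.06 and 9.25 in starved E to H. Starved H lay above controls A and B, and the other 3 starved arrays lay below all controls. The difference was -0.22 ± 0.11 (95% interval -0.46 to 0.03, limma adjusted p = 0.264), and it stayed below 0 under every alternative tried (-0.60 to -0.15) without a call.

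Slc30a1 (ZnT1), the plasma membrane exporter that MTF1 induces, had dim and scattered values. The deposited intensities were 108.6, 101.8, 51.9 and 49.1 in controls A to D, against 12.5, 87.8, 80.0 and 104.6 in starved E to H. Starved E was far below the other 7 arrays, and without it the log2 difference was 0.48. Without any 1 of the other arrays it lay between -0.16 and 0.25. Over all 8 arrays the log2 difference was 0.01, with a standard error of 0.45 and a 95% interval of -0.98 to 1.01 in the fit without a brightness limit, so a 2-fold change in either direction lies at the edge of what these arrays could show.

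The zinc importer Slc39a1 (ZIP1), a widely expressed uptake transporter of the plasma membrane, was lower in starved myotubes. Log2 signals were 9.70, 9.74, 9.75 and 9.55 in controls A to D, against 9.25, 9.30, 9.42 and 9.43 in starved E to H. All 4 starved arrays lay below all 4 controls, with control D the nearest to them. The means were 9.68 ± 0.09 and 9.35 ± 0.09 (SD, n = 4), a difference of -0.33 ± 0.09 (95% interval -0.54 to -0.13, limma adjusted p = 0.0392).

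Unlike Mt2, Slc39a1 was separated in the deposited values as well. Intensities were 1122, 811, 875 and 946 in controls A to D, against 433, 511, 590 and 758 in starved E to H. The means were 939 ± 134 and 573 ± 139 (SD, n = 4). Without scaling the log2 difference was -0.72 (limma adjusted p = 0.0275), 0.39 below the median of all tested probe sets there. In those unscaled values 0.582% of all tested probe sets were called higher, 11.3% were called lower and 15.4% had all starved arrays below all controls. The call was close to the threshold. It held under median and 75th percentile centring, and it was lost without an intensity trend (limma adjusted p = 0.0615). Leaving out any 1 of 6 arrays also lost it, namely controls A, B and C and starved E, F and G (limma adjusted p from 0.0565 to 0.115). Without control B the adjusted p was 0.0720 (limma). The difference was then between -0.30 and -0.36.

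**Figure D3:**
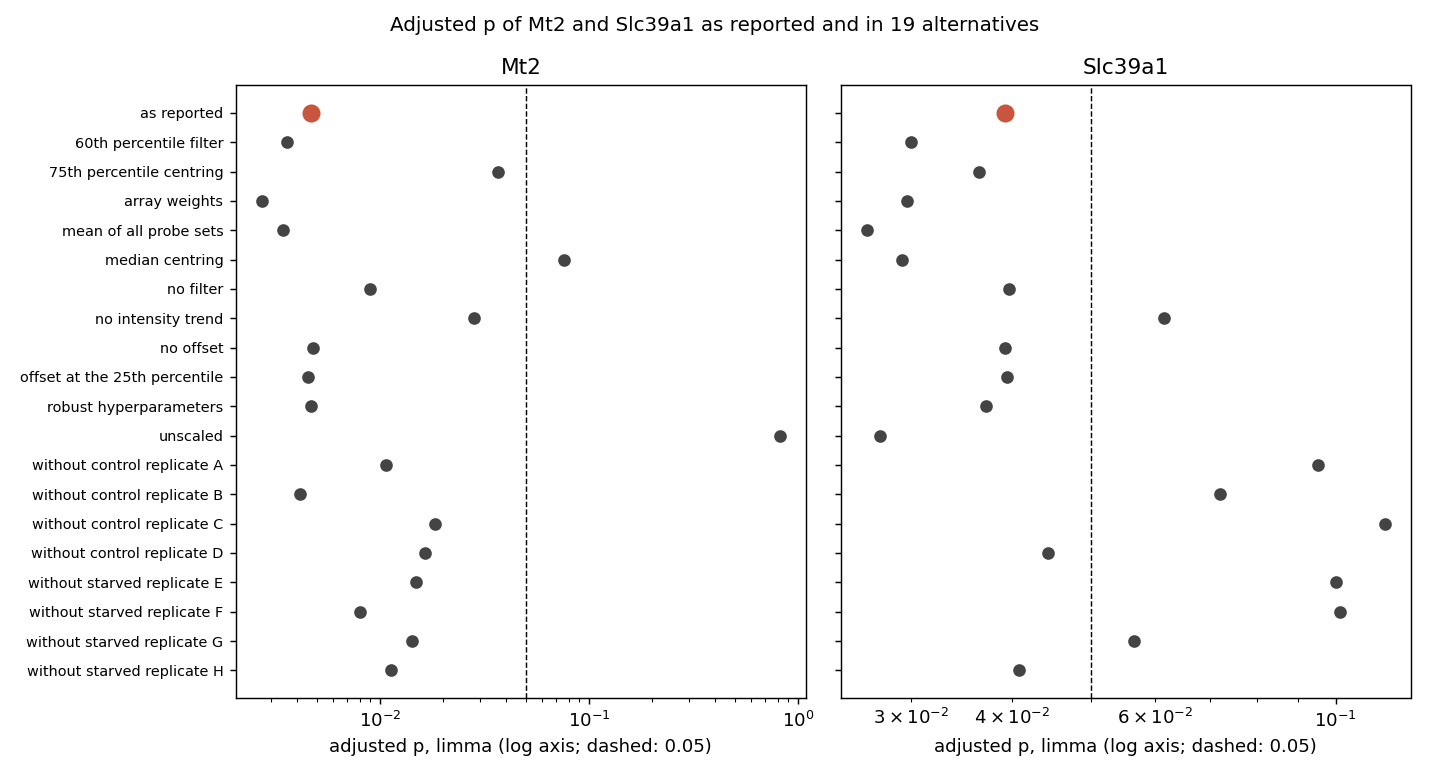
Adjusted p of Mt2 (left) and Slc39a1 (right) from limma on a log axis, as reported (large red point) and under 19 alternatives, with the threshold of 0.05 dashed. Mt2 crosses the threshold with median centring (0.0762) and in unscaled values (0.819), and Slc39a1 crosses it without an intensity trend and without any 1 of 6 arrays (0.0565 to 0.115).

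The other zinc transporters were followed as a list of 20 genes, of which 15 had a probe set with 1 symbol and 13 had one bright enough to test. Through the brightest probe set of each gene 1 rose, 2 fell and 10 did not pass, where 11.2% of 8352 tested genes were called, 4.25% higher and 6.93% lower. Groups did not overlap for 18.5% of tested genes. The median log2 difference of the 13 was 0.06, against 0.01 over all tested genes.

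Slc39a7 (ZIP7), which releases zinc from the endoplasmic reticulum, had log2 signals of 10.12, 10.28, 10.13 and 10.18 in controls A to D, against 10.65, 10.74, 10.72 and 10.55 in starved E to H. It rose by 0.49 ± 0.08 (limma adjusted p = 0.00216), with no overlap between the groups. As with Mt2, deposited intensities overlapped (1138 to 1496 in controls, 1160 to 1598 in starved arrays), and the call was lost in unscaled values (0.09, limma adjusted p = 0.735). Like the bright Mt1 probe set, that of Slc39a7 (1416949_s_at) carries the suffix _s_at, and which transcripts it binds was not tested.

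Slc39a13 (ZIP13), an importer of the secretory pathway needed by connective tissue, had log2 signals of 9.22, 9.25, 9.29 and 9.31 in controls A to D, against 8.60, 8.84, 8.61 and 9.02 in starved E to H. It fell by 0.50 ± 0.11 on the log2 scale (limma adjusted p = 0.0159), without overlap after normalization, and the call held under all 19 alternatives. Deposited intensities overlapped (564 to 806 in controls, 273 to 576 in starved arrays). The summed signal of fibroblast markers was also lower in starved arrays (5691 to 6721 against 7027 to 8419), although 3 of the 6 markers were above zero and Dcn rose by 0.94. The part of this in the Slc39a13 result was not tested.

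Slc39a14 (ZIP14), an importer of zinc and iron, fell by 0.72 ± 0.17 on the log2 scale through its brighter probe set (1427035_at, limma adjusted p = 0.0198). Log2 signals there were 8.94, 9.33, 9.69 and 8.95 in controls A to D, against 8.35, 8.71, 8.57 and 8.40 in starved E to H, with control C the highest and no overlap. The other probe set (1425649_at) stood at 0.07 ± 0.15 (limma adjusted p = 0.845). Averaging both gave -0.33 (limma adjusted p = 0.108). Without starved E the call was also lost (limma adjusted p = 0.0587).

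Among genes that did not pass, the secretory pathway exporter Slc30a5 (ZnT5) stood at 0.32 ± 0.15 (limma adjusted p = 0.234), with all 4 starved arrays above the controls. The probe sets of Slc39a9 disagreed, at 0.17 ± 0.12 for the brightest and -0.99 ± 0.41 for the next, and neither passed (limma adjusted p = 0.440 and 0.173). Both genes were named after their values were seen.

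**Figure D4:**
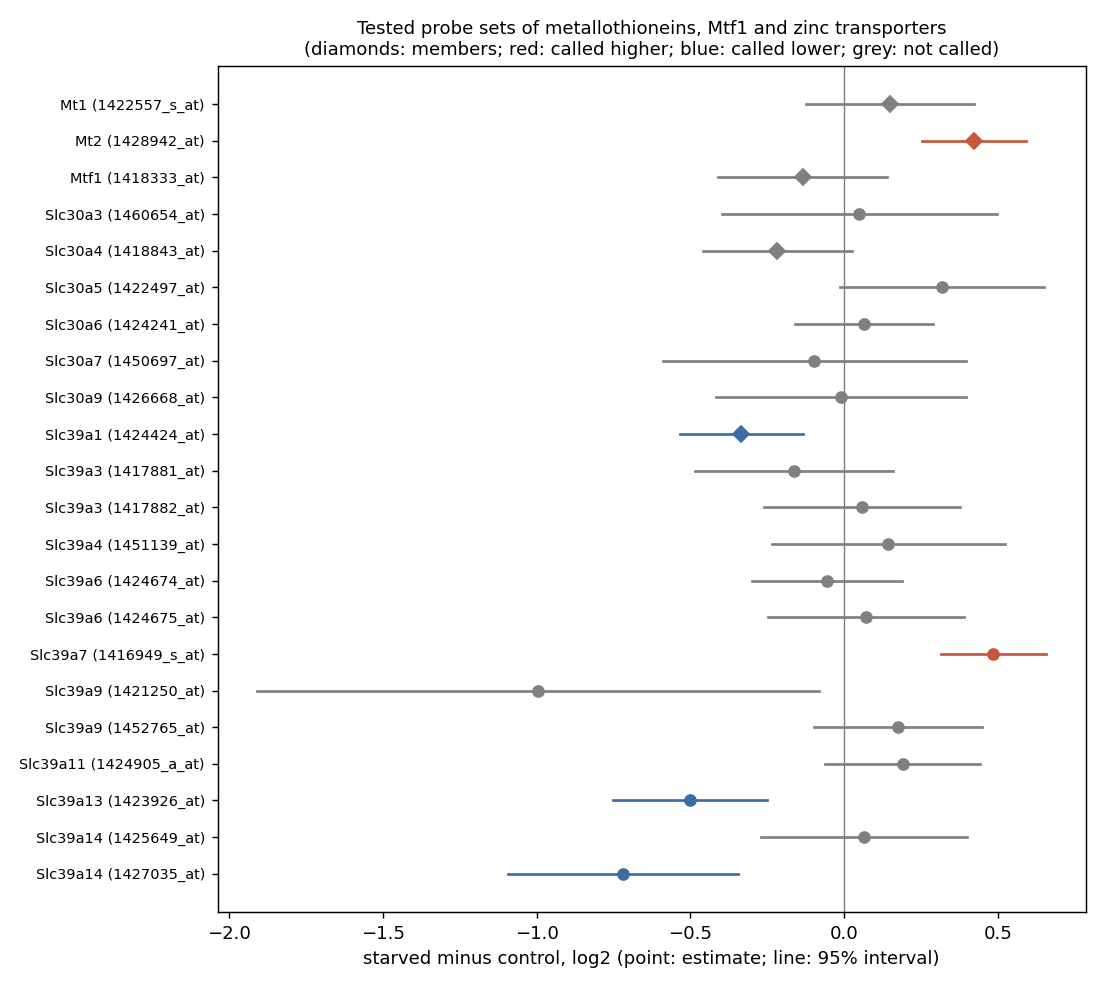
Log2 difference, starved minus control, with its 95% interval for every tested probe set of the members (diamonds) and of the other zinc transporters (circles), named on the vertical axis. Mt2 (0.42) and Slc39a7 (0.49) were called higher (red), Slc39a1 (-0.33), Slc39a13 (-0.50) and 1 of the 2 probe sets of Slc39a14 (-0.72) were called lower (blue), and the others were not called (grey).

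The other metallothioneins, and genes that share regulators with Mt1 and Mt2, gave mixed values. Mt3 and Mt4, the brain and squamous epithelial forms, were below the brightness limit and were given no call. Mt4 had deposited intensities of 81.5, 47.8, 46.6 and 39.6 in controls A to D, against 8.5, 23.8, 23.5 and 22.7 in starved E to H. All 4 starved arrays lay below the controls, also after normalization, and the log2 difference was -0.79, with a standard error of 0.23 in the fit without a brightness limit (95% interval -1.31 to -0.27). For Mt3 the groups overlapped, with a difference of -0.02 and a standard error of 0.30. Of 6 further genes reported as MTF1 targets 5 were tested, and 0 rose and 1 fell: Csrp1, a LIM-domain protein, fell by 0.65 ± 0.10 on the log2 scale (limma adjusted p = 0.00228). The other probe set of Csrp1 stood at -0.35 ± 0.30, and the mean of both lost the call (limma adjusted p = 0.0871). Selenow, Ndrg1, Gclc and the iron exporter Slc40a1 did not pass. The brightest Ndrg1 probe set stood at -0.02, and its other tested probe sets at 0.05, -0.33 and -0.39, with no call. A dim Ndrg1 probe set (1450977_s_at) stood at -1.14, with a standard error of 0.29 and all starved arrays below the controls. The median of the 5 was -0.02, against 0.01 over all tested genes, of which 4.25% were called higher and 6.93% lower.

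Copper handling genes, which share metallothionein as a metal store, showed 0 calls among 13 tested of 15 in limma, with a median of -0.01. Of all tested genes 11.2% were called, and their median was 0.01. The mitochondrial copper carriers Cox17 (0.22 ± 0.09, limma adjusted p = 0.159) and Cox19 (0.25 ± 0.09, limma adjusted p = 0.102) did not pass. Both were named after their values were seen. In unscaled values 2 genes of the list were called, Sod1 and Sod3, where 11.3% of all tested probe sets were called lower. Sod1, the copper and zinc superoxide dismutase, stood at -0.15 ± 0.08 (limma adjusted p = 0.275), and at -0.52 in unscaled values (limma adjusted p = 0.0313), where the median of all tested probe sets was -0.33.

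Glucocorticoid-induced genes, which share an inducer with the metallothioneins, had 1 of 12 tested genes higher and 1 lower, with a median of 0.18. Among all tested genes 4.25% were called higher and 6.93% lower, with a median of 0.01. Fkbp5, a chaperone of the glucocorticoid receptor, fell by 0.48 ± 0.11 on the log2 scale (limma adjusted p = 0.0162). Its other probe set stood at 0.23 ± 0.16, and the call was lost with the mean of both and without control A, control C or starved F. The kinase Sgk1 rose by 0.46 ± 0.13 (limma adjusted p = 0.0473), a call that only 6 of 19 alternatives kept.

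Genes of metal and oxidative stress, which with metallothioneins respond to cadmium and oxidants, had 2 of 7 tested genes higher and 1 lower, with a median of 0.35. Over all tested genes 4.25% were called higher and 6.93% lower, with a median of 0.01. Heme oxygenase Hmox1 had log2 signals of 7.30, 7.17, 7.76 and 8.09 in controls A to D, against 8.70, 8.38, 9.14 and 8.60 in starved E to H. It rose by 1.13 ± 0.22 (limma adjusted p = 0.00728), a larger difference than that of any tested member, and the call was lost in unscaled values (0.77, limma adjusted p = 0.0690). Thioredoxin reductase Txnrd1 rose by 0.36 ± 0.10 (limma adjusted p = 0.0437), a call that 7 of 19 alternatives kept. Thioredoxin Txn1, its substrate, fell by 0.73 ± 0.06 on the log2 scale (limma adjusted p = 1.12e-05), while its other probe set stood at 0.30 ± 0.17 and the mean of both lost the call (limma adjusted p = 0.199).

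The array-to-array pattern of the metallothioneins within groups was compared with that of all tested genes after subtraction of each group's mean, as a description over 8 arrays. For Mt1 the genes with the highest Pearson r were Jag2 (0.99), Hibch (0.98), Proser1 (0.97), Gata4 (0.96) and Slc44a2 (0.96). For Mt2 they were Ndufs8 (0.96), Gpn1 (0.96), Rps18 (0.95), Serpinb9b (0.95) and Phyh (0.95). The lists have no gene in common. Among these 10 genes Rps18, a ribosomal protein gene, rose by 0.27 and Slc44a2, a choline transporter, fell by 0.41 on the log2 scale (limma adjusted p = 0.00231 and 0.0198). Probe sets of Rps18, Slc44a2 and Ndufs8 carry the suffix _x_at, and that of Hibch carries _s_at. Which transcripts they bind was not tested. Mt1 and Mt2 had an r of 0.41 with each other, and 0.17 without control B. The 8 points of each r share their arrays' scaling and RNA quality, and these genes were picked as the highest of 8352 values.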

How the data were processed

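The deposited table holds probe set intensities on a linear scale for 8 Affymetrix mouse arrays. The software and summary method behind them are not given in the sources used here. Values below 0 were set to 0, log2 was taken after adding 10.9, the 10th percentile of the table. Trimmed mean intensities (2% off each end) differed by more than 5%, so arrays were quantile normalized. After 64 control probe sets were left out, those whose mean exceeded the 40th percentile of means were tested with limma 3.58.1 in R 4.3.3 (lmFit, eBayes with intensity trend). P-values were adjusted by Benjamini-Hochberg over 13575 probe sets (threshold 0.05). Probe sets below the limit have values from a fit without it. A gene in a list was read from its brightest tested probe set with 1 symbol. The platform annotation named 1 symbol for 20380 probe sets, several for 691 and none for 1555, and 20351 of the first matched the RefSeq table of GRCm38.p6 by gene number. The precision is limited by 4 arrays per group.

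Named genes were all members, up to 3 called genes with the largest difference per list (with none called, the brightest), and the 5 genes most like Mt1 and Mt2. Members and lists were chosen with earlier results of these data known. The fit was tested on simulated data, with planted differences larger than those of the tested members. Recovery of smaller differences was not tested. Alternatives covered the offset, scaling, brightness limit, intensity trend, robust fit, array weights, mean of probe sets and each array left out. Replicate letters differ between groups and pair no arrays.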

Additional observations from a re-analysis of the deposited data

Results flagged for a closer look

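Each group of 4 arrays was checked for an array far from the other 3, in 19 values and 38 groups, and chance alone marks about 1 group in 20. There were 3 such arrays. The exporter Slc30a1 had a log2 signal of 4.88 in starved E against 6.69 to 6.80 in the other starved arrays, a gap of 0.943 of the group's range, in a probe set too dim to test. Superoxide dismutase Sod1 (1451124_at) stood at 11.75 in control B against 11.61 to 11.63 in the other controls, a gap of 0.848 of the range. Control B is also the array with the high Gapdh 3′ to 5′ log2 ratio of 1.40, and its part in the Sod1 value was not tested. The kinase Sgk1 stood at 9.36 in starved H against 8.98 to 9.03 in the other starved arrays, a gap of 0.879 of the range. Without starved H its difference was 0.38 and the call was lost (limma adjusted p = 0.0996).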

How the results depend on the processing

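Of the 5 tested member probe sets 2 were called, and 1 was called with median centring, without an intensity trend and in unscaled values; without 1 array at a time the count ran from 1 to 2. Mt2 alone was lost in unscaled values and with median centring, and Slc39a1 alone in the other settings with 1 call. The difference of Mt1 reversed in unscaled values (-0.20), and that of Mtf1 reversed with the mean of its probe sets (0.16), both without a call. For the unscaled setting the shift of all tested probe sets (-0.33) stands beside these values; for the others the cause was not tested. The change in Mt2 minus Mt1 ran from 0.19 to 0.35 over its 13 alternatives (scaling, offset and single arrays left out; the other settings were not run for it), with exact p from 0.0571 to 0.257. The count of all called probe sets (1437) ran from 1060 to 1737. No paired analysis was possible because the replicate letters differ between the groups. The planned test of Slc39a10 against Slc30a1 was not run, since Slc39a10 had no probe set in the annotation used here. Dim signal limits what can be said of Slc30a1 and of the second probe sets of Mt1 and Mtf1.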
